A study of Mus musculus with 6 samples.

Results

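Ring1b peaks over the Hox clusters were taken from 1 peak list of hair follicle stem cells (HFSC), which renew the hair, and 1 of intestinal stem cells (ISC), which renew the gut lining. A peak was a member when its midpoint lay in 1 of 4 windows on the mouse build mm9: chromosome 6 from 52.05 to 52.35 Mb (HoxA), chromosome 11 from 96.0 to 96.25 Mb (HoxB), chromosome 15 from 102.7 to 102.95 Mb (HoxC) and chromosome 2 from 74.4 to 74.65 Mb (HoxD). This gave 330 of 11198 peaks, 173 of 6754 in HFSC and 157 of 4444 in ISC. Both ChIP-seq libraries came from wild-type C57BL/6 mice (LGR5-Ring1a/b ++ in the protocol), from sorted living Lgr5-GFP cells, with an antibody to Ring1b made in the authors' laboratory; the follicles were synchronised. RNA-seq of FACS-sorted HFSC on the same strain had 2 libraries labelled Ring1a/b-/- and 2 labelled wild type (WT). The sources used here do not give ages, the number of animals behind a library, or the Cre that made the knockout. With 1 ChIP library per cell type there was no replicate, so no difference between the cell types was tested and none of them has a replicate error.

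Ring1b, encoded by Rnf2, is a catalytic subunit of Polycomb repressive complex 1 (PRC1), a complex that places ubiquitin on histone H2A and keeps developmental genes silent. Hox genes encode homeobox transcription factors that give cells their position along the body axis. They lie in clusters, in an order that matches the order in which they are expressed from head to tail, so that a cell usually expresses one stretch of a cluster while Polycomb complexes cover the rest as a broad domain. In mouse, the low-numbered (anterior) genes lie at the low-coordinate end of HoxA, and the group 13 (posterior) genes lie at the low-coordinate end of HoxB, HoxC and HoxD. Polycomb complexes are known to gather at promoters rich in the dinucleotide CG.

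The promoters below, the 250 bases before the annotated start, are shown because they belong to Hoxd11, the Hox gene that passed the test of the gene counts, and to neighbours of it that had no wild-type count (Hoxd10, Hoxd13) or were counted in every library (Hoxd8). They come from RefSeq on build GRCm38.p6 (plus strand of chromosome 2), and capitals mark each CG. Hoxd13 lies at chr2:74667975-74668224, the Hoxd11 starts at chr2:74679308-74679557 and chr2:74682073-74682322, Hoxd10 at chr2:74691641-74691890 and Hoxd8 at chr2:74704365-74704614.
Hoxd13: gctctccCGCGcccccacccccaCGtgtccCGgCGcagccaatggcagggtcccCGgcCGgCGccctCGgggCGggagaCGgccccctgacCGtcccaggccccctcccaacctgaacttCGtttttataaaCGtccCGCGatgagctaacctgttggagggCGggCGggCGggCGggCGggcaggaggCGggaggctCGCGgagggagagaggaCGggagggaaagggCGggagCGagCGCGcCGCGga
Hoxd11, upstream start: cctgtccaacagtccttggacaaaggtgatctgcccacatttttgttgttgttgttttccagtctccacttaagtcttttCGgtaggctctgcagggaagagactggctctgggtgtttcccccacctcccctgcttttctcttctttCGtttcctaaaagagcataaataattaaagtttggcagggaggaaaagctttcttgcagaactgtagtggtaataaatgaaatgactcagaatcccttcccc
Hoxd11, downstream start: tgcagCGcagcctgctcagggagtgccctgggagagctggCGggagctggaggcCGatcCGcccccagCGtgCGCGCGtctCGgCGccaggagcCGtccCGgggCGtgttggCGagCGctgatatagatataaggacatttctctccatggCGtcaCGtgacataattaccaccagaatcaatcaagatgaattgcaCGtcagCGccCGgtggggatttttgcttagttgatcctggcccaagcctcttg
Hoxd10: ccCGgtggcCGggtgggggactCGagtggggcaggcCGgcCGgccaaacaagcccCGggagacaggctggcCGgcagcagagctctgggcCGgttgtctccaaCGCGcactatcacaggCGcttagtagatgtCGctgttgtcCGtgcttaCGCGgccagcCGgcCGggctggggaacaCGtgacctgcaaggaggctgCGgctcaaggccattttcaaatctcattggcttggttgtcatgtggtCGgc
Hoxd8: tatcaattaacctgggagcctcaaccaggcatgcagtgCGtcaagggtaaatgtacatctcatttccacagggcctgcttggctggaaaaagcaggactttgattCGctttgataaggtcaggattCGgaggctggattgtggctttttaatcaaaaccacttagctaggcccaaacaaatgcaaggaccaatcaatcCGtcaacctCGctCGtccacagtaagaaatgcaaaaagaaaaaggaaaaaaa
The Hoxd13 promoter held 31 CG, the downstream Hoxd11 start and Hoxd10 held 20 each, Hoxd8 held 6 and the upstream Hoxd11 start held 2. Over 24 annotated starts of the 22 Hox genes that the table held, of 39 in the count table, the median was 12.5 CG (range 2 to 35), against 6 over 32851 promoters of the same length. CG reads the same on both strands, cannot overlap itself, and occurred in 92.1% of all these promoters. The peaks are on another build and are placed by position only, so no peak was assigned to these promoters.

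Ring1b peaks covered the most bases at HoxA in both cell types. They covered more there in ISC than in HFSC, while at HoxC and HoxD they covered more in HFSC. HoxA held 50 peaks covering 33.0 kb in HFSC and 73 peaks covering 51.2 kb in ISC, a difference of -18.2 kb (HFSC minus ISC). HoxD held 41 peaks over 23.8 kb in HFSC and 31 over 11.3 kb in ISC. HoxC held 32 peaks over 17.5 kb in HFSC and 17 over 8.19 kb in ISC. HoxB was the closest pair in covered bases, with 50 peaks over 17.5 kb in HFSC and 36 over 14.7 kb in ISC.

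**Figure D1:**
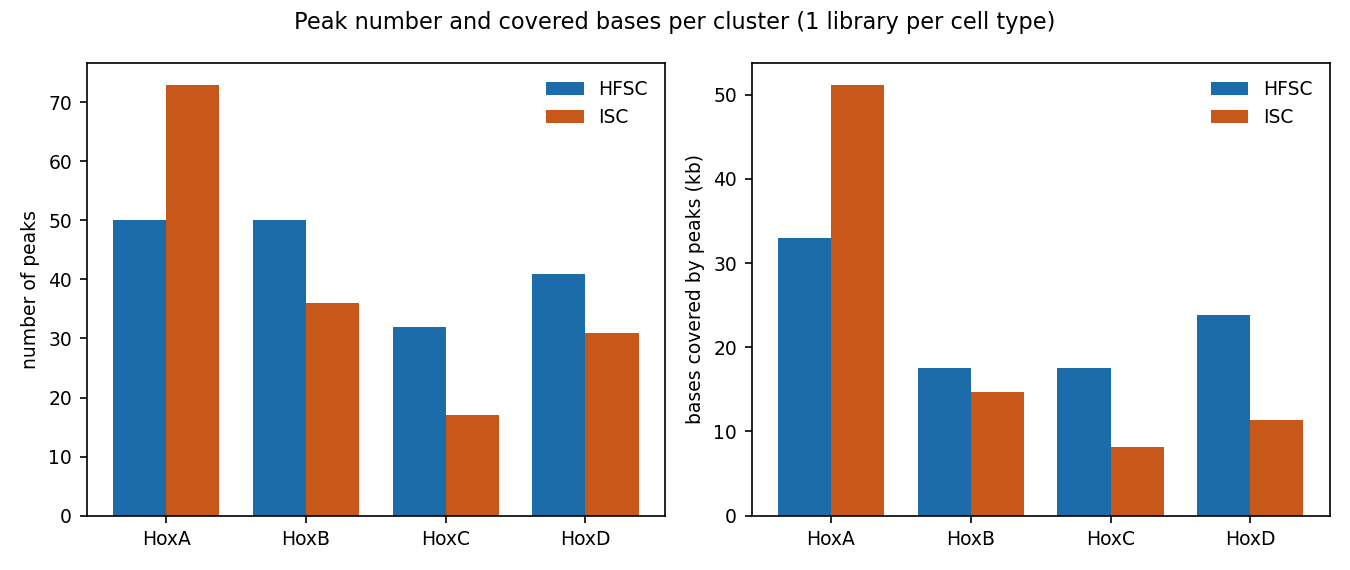
Number of Ring1b peaks (left) and kilobases covered by peaks (right) in each Hox cluster, for HFSC (blue) and ISC (orange), with 1 library per bar and so no error bars. ISC has the taller bars at HoxA (73 peaks, 51.2 kb) and HFSC at HoxB, HoxC and HoxD.

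Summed over the Hox clusters, 91.9 kb were covered in HFSC and 85.5 kb in ISC, and the order turned to 83.1 against 85.5 kb (141 against 157 peaks) with the HFSC list shortened to its 4444 strongest peaks. The whole lists differed more, 2424 kb against 1568 kb, so the ratio of HFSC to ISC bases was 1.55 over all peaks. Against this ratio, HoxA stood at 0.645, HoxB at 1.19, HoxC at 2.14 and HoxD at 2.11. The balance between clusters therefore differed: HoxA supplied 59.9% of the Hox bases in ISC and 35.9% in HFSC, and HoxD supplied 13.2% in ISC and 25.9% in HFSC. The Hox windows held 2.56% of the peaks and 3.79% of the peak bases in HFSC, and 3.53% and 5.45% in ISC. The mean fold of the peaks behind these sums was 8.50 in HFSC and 6.91 in ISC at HoxA, 7.06 and 5.95 at HoxB, 8.88 and 6.54 at HoxC, and 8.77 and 6.21 at HoxD. Fold is the authors' enrichment over the caller's background, and it is read here only within a list, where the mean was 6.75 in HFSC and 5.93 in ISC.

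Ranked by covered bases, the densest stretches of at most 250 kb in the HFSC list were HoxA, HoxD, HoxB and HoxC, in that order. The fifth stretch, on chromosome 19, held 9.59 kb, against 17.5 kb at HoxC. In ISC the first 3 stretches were HoxA, HoxB (15.1 kb with peaks next to the window) and HoxD, followed by a stretch on chromosome 14 with 10.9 kb. HoxC was not among the 10 densest ISC stretches.

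Strong peaks were divided differently from peaks in general. At a −log10 q of at least 10, HFSC kept 19 of 50 HoxA peaks, 12 of 50 HoxB, 16 of 32 HoxC and 20 of 41 HoxD peaks, 38.7% in all against 20.4% of its whole list. ISC kept 17 of 73 at HoxA, 1 of 36 at HoxB, 2 of 17 at HoxC and 4 of 31 at HoxD, 15.3% in all against 6.55% of its list. Of the 24 strong Hox peaks in ISC, 17 thus lay in HoxA. The order of peak number at HoxA thus turned, as it did with peaks up to 1 kb apart joined (23 in HFSC against 18 in ISC). With the strong peaks alone the HoxA difference shrank to -4.39 kb and the HoxB difference grew from 2.81 to 5.91 kb. The read depth of the ChIP libraries is unknown here.

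**Figure D2:**
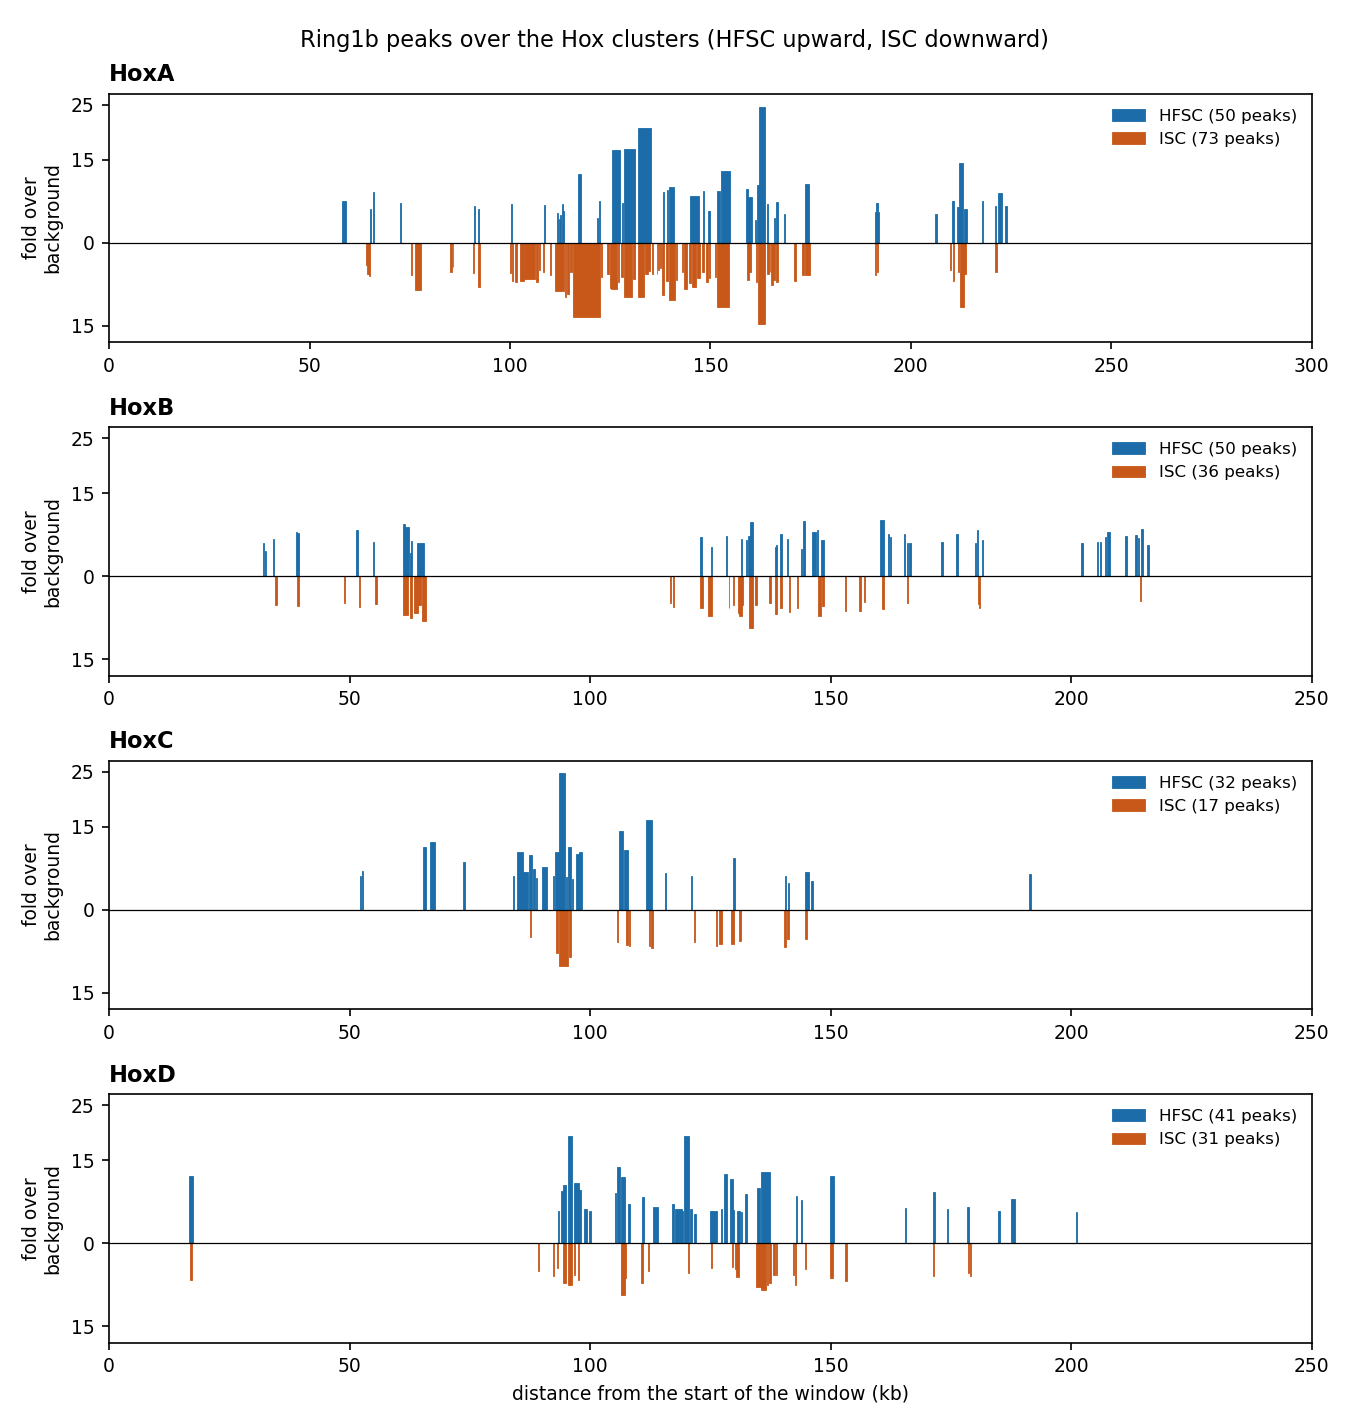
Each bar is 1 Ring1b peak, drawn at its position (kb from the start of the window) and true width, with its height showing the authors' fold over background, upward for HFSC and downward for ISC. At HoxA the ISC peaks form an almost closed block from about the 100 kb mark. The tallest HFSC bars of HoxA, HoxC and HoxD have folds of 24.6, 24.7 and 19.5. Heights are read only within a list, not between HFSC and ISC.

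Taken as a group, Hox peaks were wider than the other peaks of their own list. The median width was 344 bp in HFSC and 375 bp in ISC, against 289 and 272 bp outside the Hox windows. Peaks of at least 1 kb made up 19 of 173 Hox peaks in HFSC (11.0%, whole list 2.24%) and 14 of 157 in ISC (8.92%, whole list 2.12%). By cluster, the median width in HFSC was 344 bp at HoxA, 281 bp at HoxB, 418 bp at HoxC and 484 bp at HoxD. In ISC it was 427 bp at HoxA, 360 bp at HoxB, 378 bp at HoxC and 265 bp at HoxD. At a −log10 q of at least 10 the order of the cell types turned at HoxC (773 against 1090 bp) and HoxD (636 against 818 bp), where ISC kept 2 and 4 peaks. With peaks joined it turned at HoxB (539 against 400 bp). The HoxB median in HFSC and the HoxD median in ISC lay below those of the whole lists (290 and 274 bp). With the peaks as called, HoxD thus had the widest median of the clusters in HFSC and the narrowest in ISC. None of its 31 ISC peaks reached 1 kb, against 6 of 41 in HFSC. The order of the clusters depended on the setting. In HFSC, HoxA was widest at a −log10 q of at least 10 (867 bp, HoxD 636 bp) and with peaks joined (981 bp, HoxD 782 bp). In ISC, HoxB was narrowest with peaks joined (400 bp, HoxD 507 bp).

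The widest peak of the whole ISC list was a Hox peak, 6685 bp at chr6:52165771-52172455 in HoxA. It carried a fold of 13.4, rank 15 of its list. The same interval held 3 HFSC peaks, the strongest of them 762 bp wide with a fold of 12.5 at chr6:52167044-52167805. Their summits lay 3591 bp apart, the largest summit distance among the overlapping pairs. The widest HFSC Hox peak was 3227 bp at chr6:52181865-52185091, with a width rank of 3 in its list and a fold of 20.8 (rank 12). Its HoxA neighbours at chr6:52178432-52181264 (2833 bp, fold 17.0) and chr6:52175326-52177368 (2043 bp, fold 16.8) were also among the 20 widest of the HFSC list (ranks 6 and 19). The widest peaks elsewhere were 1423 bp (HFSC) and 1068 bp (ISC) at HoxB, 1310 and 1800 bp at HoxC, and 1966 and 937 bp at HoxD.

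**Figure D3:**
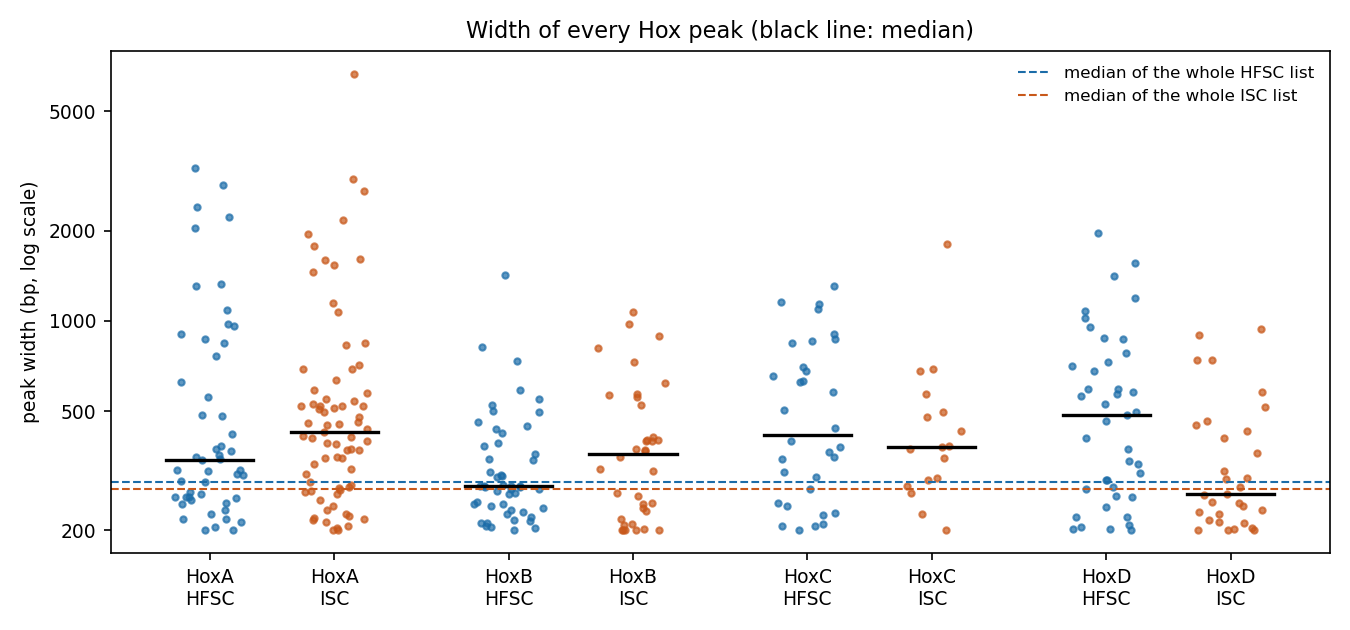
Width of every Hox peak in bp on a log scale, by cluster and cell type, with the black line at the median of the group and dashed lines at the medians of the whole HFSC (290 bp) and ISC (274 bp) lists. The HoxA groups reach highest (3227 bp in HFSC, 6685 bp in ISC), and the ISC HoxD median (265 bp) lies below the dashed line.

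The fold of Hox peaks was above the median of the list for 116 of 173 HFSC peaks (67.0%) and 97 of 157 ISC peaks (61.8%). The top 10% of each list by fold held 50 HFSC Hox peaks (28.9%) and 30 ISC Hox peaks (19.1%). In HFSC these were 17 at HoxA, 13 at HoxC, 16 at HoxD and 4 at HoxB. In ISC they were 18 at HoxA, 6 at HoxD, 3 at HoxB and 3 at HoxC. HoxB was the low cluster in HFSC, with a highest fold of 10.1 (chr11:96160307-96161121), and its peaks reached the top 10% in 4 of 50 cases. It was low in ISC too, with 3 of 36 peaks in the top 10% and 17 of 36 (47.2%) above the list median. The highest HFSC folds were 24.7 at chr15:102793553-102794690 in HoxC, rank 5 of the list, and 24.6 at chr6:52212235-52213566 in HoxA, rank 6. The ISC maximum was 14.8 at chr6:52211752-52213523, which overlaps the HoxA maximum of HFSC, so the strongest HoxA peak was in the same place in both lists. The HoxC maxima also overlapped, the ISC peak at chr15:102793578-102795377 having a fold of 10.2. At HoxD they did not: the HFSC maximum (fold 19.5) lay at chr2:74519526-74520602 and the ISC maximum (fold 9.41) at chr2:74506438-74507176. Wider peaks had higher folds, with a Spearman correlation of 0.618 over the 173 HFSC peaks and 0.628 over the 157 ISC peaks, where peaks share a library and both values come from the same reads.

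About as many Hox peaks were overlapped by the other list as not, and which list had the larger share turned with the HFSC list shortened (51.8 against 50.3%). In HFSC 89 of 173 (51.4%, Wilson 95% interval 44.1 to 58.8%) were overlapped by an ISC peak by at least 1 bp, against 25.5% of all HFSC peaks. In ISC 86 of 157 (54.8%, interval 47.0 to 62.4%) were overlapped by an HFSC peak, against 38.9% of all ISC peaks. These intervals cover counting error only, and neighbouring peaks are not independent. HoxA stood out in HFSC, with 41 of 50 peaks overlapped (82.0%), against 20 of 50 at HoxB, 11 of 32 at HoxC and 17 of 41 at HoxD. In ISC the shares were 39 of 73 at HoxA (53.4%), 17 of 36 at HoxB, 11 of 17 at HoxC and 19 of 31 at HoxD. At HoxA most HFSC bases thus lay under ISC peaks (71.7%) but less of the ISC bases under HFSC peaks (46.2%), and at HoxC and HoxD the order was turned, 24.6 and 31.0% of HFSC bases against 52.5 and 65.3% of ISC bases. Of all bases covered in either list 30.5% were covered in both, between 20.1% at HoxC and 39.1% at HoxA, against 14.0% over the whole lists.

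Overlap did not mean the same summit or the same rank. Over 106 overlapping pairs the median distance between summits was 253 bp, and 25 pairs had summits within 100 bp. The Spearman correlation of the 2 folds over these pairs was 0.168, a description of pairs that share peaks. The largest summit distances in the other clusters were 781 bp at HoxB, 1322 bp at HoxC and 623 bp at HoxD.

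The 9 HFSC peaks of HoxA without an ISC partner lay mostly at the edges of the domain. The first 4 of the 50 HFSC peaks included 3 of them, at chr6:52108148-52109048 (901 bp, fold 7.57), chr6:52115701-52116069 (fold 9.14) and chr6:52122595-52122799 (fold 7.12). Another 4 lay at the high-coordinate end, at chr6:52256088-52256469, chr6:52267712-52267967, chr6:52271782-52272745 (964 bp, fold 8.99) and chr6:52273485-52273970. The remaining 2, at chr6:52158490-52158748 and chr6:52218311-52218661, had folds of 6.88 and 5.23. The 6 ISC peaks of HoxC without an HFSC partner all lay between 102805496 and 102831323 on chromosome 15 and had folds of 5.58 to 6.49, the widest being 689 bp at chr15:102826805-102827493.

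Along HoxA, the excess in ISC lay mostly between 52150001 and 52180000 on chromosome 6. The stretches named from here on were chosen after their values were seen. Over that stretch, peaks covered 71.4% of the sequence in ISC (21.4 kb, 22 peaks) and 23.2% in HFSC (6.96 kb, 13 peaks). This accounts for -14.4 kb of the -18.2 kb difference. In the 10 kb from 52160001 the ISC peaks covered 81.4% and the HFSC peaks 19.7%. An HFSC gap of 8.01 kb from 52150476 to 52158489 held 7 ISC peaks covering 5.32 kb with folds up to 7.17, and the widest HFSC gap, 18.1 kb from 52122800 to 52140922, held 4 ISC peaks over 2.57 kb. Over the next 50 kb the lists were closer, 36.0% in HFSC and 45.3% in ISC. At the high-coordinate end, from 52260001 to 52280000, HFSC had the larger share (23.5% against 11.8%).

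At HoxB both lists fell into a small block at the low-coordinate end and a larger one beyond a wide gap. The gap measured 57.4 kb in HFSC (chr11:96065439-96122877) and 50.7 kb in ISC (chr11:96065923-96116650). The peaks at its left edge were the widest HFSC peak, chr11:96064016-96065438 (fold 5.99), and an ISC peak of 974 bp, chr11:96064949-96065922 (fold 8.06). The excess in HFSC lay at the high-coordinate end, over 96160001 to 96220000, with 21 peaks and 6.70 kb in HFSC against 5 peaks and 1.28 kb in ISC. There an ISC gap of 33.3 kb (chr11:96181119-96214394) held 9 HFSC peaks of fold up to 8.04. From 96120001 to 96140000 ISC had more, 5.46 kb against 3.35 kb, and its strongest HoxB peak (fold 9.41, chr11:96132958-96133846).

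At HoxC the excess in HFSC lay at the low-coordinate end. Over 102750001 to 102790000 on chromosome 15, HFSC had 11 peaks covering 5.79 kb and ISC had 1 peak of 267 bp, with a fold of 4.93. The HFSC peaks there reached a fold of 12.3 at chr15:102766768-102767674. The first HFSC peak of the cluster started at 102752119 and the first ISC peak at 102787470. Both lists were densest in the next 10 kb, which hold both HoxC maxima, with 57.9% covered in HFSC and 27.5% in ISC. From 102820001 to 102840000 ISC had more, 2.35 kb in 5 peaks against 0.778 kb in 2.

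At HoxD the lists differed most over 74510001 to 74530000 on chromosome 2 and were close in the next 10 kb. In the first of these stretches HFSC had 13 peaks covering 43.2% (8.64 kb) and ISC 5 peaks covering 6.75% (1.35 kb). The ISC gap at 74512191 to 74520373 held 4 HFSC peaks covering 3.10 kb, with the HFSC maximum of HoxD at its edge. In the 10 kb that follow, peaks covered 3.81 kb in HFSC and 4.05 kb in ISC, and each had its widest HoxD peak there. Before it, from 74490001 to 74510000, HFSC covered 6.33 kb and ISC 3.26 kb. Both lists also had a lone peak far to the left, chr2:74416657-74417363 in HFSC (fold 12.2) and chr2:74416865-74417164 in ISC (fold 6.72), set apart from the rest by 75.9 and 72.0 kb.

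**Figure D4:**
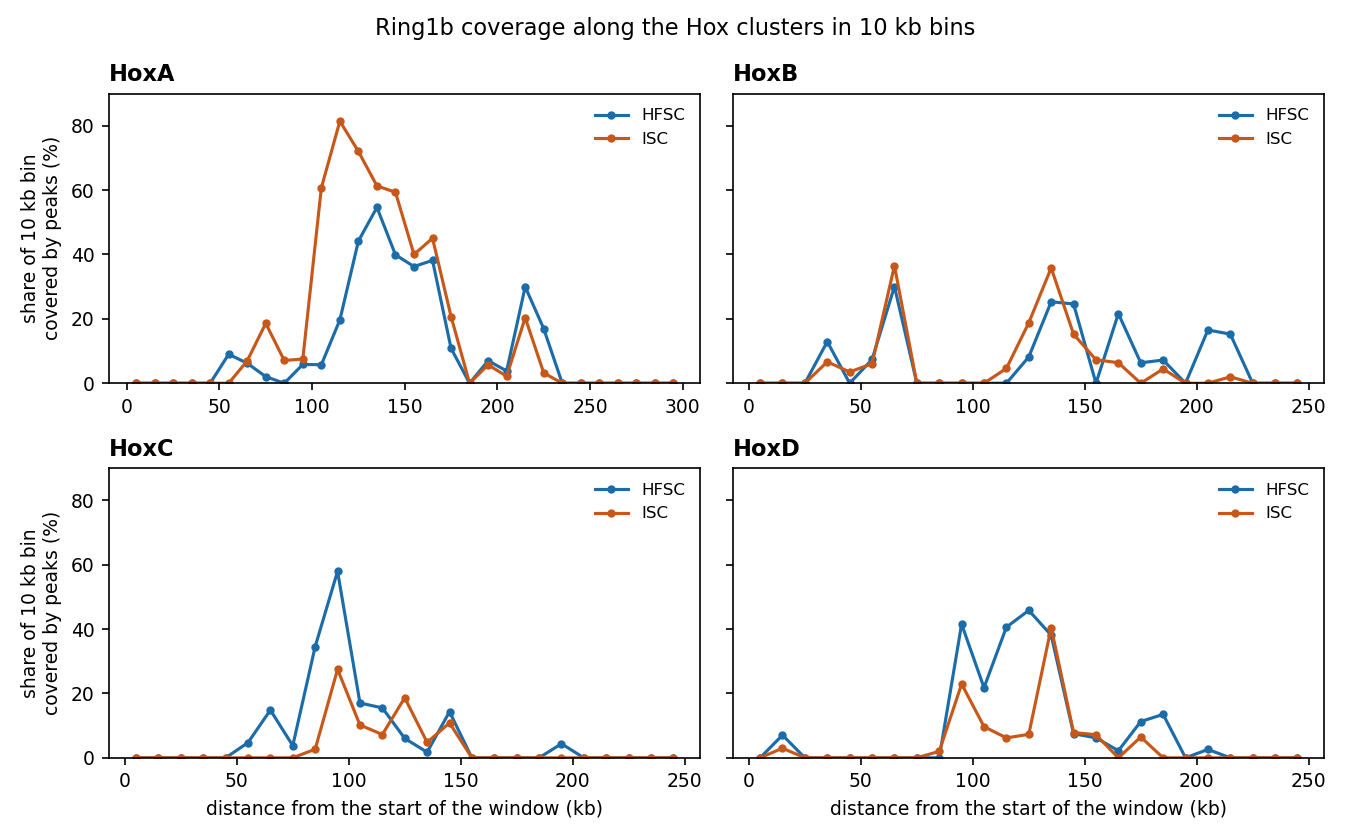
Share of each 10 kb bin covered by Ring1b peaks, against the distance of the bin's centre from the start of the window, for HFSC (blue) and ISC (orange). ISC rises above HFSC at the left of the HoxA domain (81.4% against 19.7% at its highest bin), and HFSC lies above ISC in 9 of 11 HoxC bins and 9 of 13 HoxD bins with a peak, with the HoxD lines close at 38.1 and 40.5%.

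The broad outline was nevertheless shared. Of 55 bins of 10 kb with a peak in either list, covered bases correlated at a Pearson r of 0.561 (Spearman 0.521), between 0.611 and 0.664 within single clusters, as a description of bins that share 2 libraries. ISC covered more in 12 of 17 such bins at HoxA, and HFSC in 9 of 11 at HoxC, 9 of 13 at HoxD and 8 of 14 at HoxB.

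The RNA libraries give the other readout for these clusters, in HFSC only. Gene counts were compared between Ring1a/b-/- and wild-type cells to see which Hox genes differ where Ring1 genes are knocked out. The knockout libraries held 4844381 and 7740945 counts, the wild-type libraries 2785843 and 3056593. Whether they came from separate animals is not stated, so p-values measure the spread among these libraries only, and that spread may be technical. Levels are CPM (counts scaled to a common library size) in the knockout and then the wild-type libraries, between which gene length does not matter. Ring1, which encodes Ring1a, stood at 15.6 and 18.4 against 31.9 and 29.4 CPM, with edgeR giving log2 -0.85 ± 0.60 (SE) at an adjusted p of 0.551. Rnf2 stood at 151 and 153 against 144 and 87.8 CPM (log2 0.39 ± 0.27, edgeR adjusted p = 0.532). Which exons were deleted is unknown here, so neither level checks the genotype. Of the listed PRC1 subunits 0 of 25 and of the PRC2 subunits 0 of 11 tested passed edgeR's threshold of 0.05. Of 6 tested genes from a list of Hox flanking genes and cluster noncoding RNAs, 0 passed. Of 10 stem cell markers of the follicle, such as Krt15, 9 were counted in every library. Nfatc1 was at 38.8 and 34.0 against 0 and 2.34 CPM and Sox9 at 172 and 156 against 49.4 and 95.1 CPM (edgeR adjusted p = 0.149 for each). Cd34 went the other way, at 15.3 and 2.61 against 24.3 and 20.4 CPM (edgeR adjusted p = 0.578). So did Krt15, at 303 and 250 against 417 and 362 CPM, and Krt14, at 246 and 208 against 292 and 290 CPM. None of the 10 passed edgeR's threshold. The 10 had sums of 1777 and 1527 against 1560 and 1698 CPM. SMART-seq2 does not mark strand, so reads of a Hox gene and of an overlapping antisense transcript cannot be told apart. No RNA of ISC was used here.

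Posterior HoxD genes had no counts in the wild-type follicle cells and were counted in both knockout libraries. Hoxd11, a gene of limb and trunk patterning, was at 58.2 and 77.6 CPM in the knockout, with 0 counts in either wild-type library, at least 132-fold higher against a floor of 3 counts over the wild-type pair (edgeR adjusted p = 0.0431). Hoxd10 (41.2 and 34.2 CPM), Hoxd13 (41.8 and 24.5 CPM) and Hoxd9 (24.6 and 13.1 CPM) also had 0 counts in both wild-type libraries, so the groups did not overlap. Their lower bounds were 69.2, 58.4 and 32.8-fold, with edgeR adjusted p of 0.0798, 0.0835 and 0.147. Hoxd8, next in the cluster, was present in both genotypes at 53.3 and 23.2 against 22.8 and 44.4 CPM, as was Hoxd3 at 8.88 and 6.10 against 6.84 and 3.34 CPM. Hoxd4 stood at 13.1 and 8.34 against 1.90 and 4.67 CPM (edgeR adjusted p = 0.523). Hoxd12, between Hoxd11 and Hoxd13, had 0 wild-type counts but only 6 and 1 counts in the knockout, and was not tested.

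Hoxd11 was 1 of 33 Hox genes tested that passed, and none was lower. The background was 0.0533% of 13134 genes higher and 0.00761% lower. Without either knockout library Hoxd11 lost its call (adjusted p = 0.0744 without replicate 1 and 0.154 without replicate 2), and without a wild-type library its bound was 70.1 or 61.6-fold, since the floor then rests on 1 library. At an unadjusted p under 0.05 edgeR gave 9 Hox genes higher and 0 lower, where the background was 8.47% of all genes higher and 8.16% lower. DESeq2 called 9 Hox genes higher after adjustment, where the background was 6.21% of all genes higher and 6.14% lower. Both knockout libraries lay above both wild-type ones for 19 of the 33 tested Hox genes (background 24.8% of all genes) and below for 2, Hoxa4 and Hoxb2 (background 22.3%). Genes at 0 in the wild type passed the count filter through the knockout alone, so these counts are a description.

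The clusters differed in how many genes had no wild-type count. In the wild type 5 of 9 HoxD genes, 3 of 9 HoxC, 2 of 11 HoxA and 1 of 10 HoxB genes had 0 counts, 11 of 39 in all. Of all 23377 genes, 14315 and 15186 had a count in wild-type replicates 1 and 2. The deeper knockout libraries had a count for 16130 and 17165 genes. Summed levels lay higher in both knockout libraries at every cluster, as did the single levels of 24.8% of all genes tested. HoxD sums were 31.9 and 52.4 CPM in wild type and 247 and 187 CPM in knockout cells. HoxA sums were 192 and 260 against 134 and 141 CPM, HoxB sums 329 and 346 against 242 and 314 CPM, and HoxC sums 221 and 268 against 157 and 157 CPM. Median log2 fold changes over tested genes with a wild-type count were 0.10 at HoxA (8 genes), 0.43 at HoxB (9), 0.78 at HoxC (6) and 0.56 at HoxD (3), against 0.03 over all genes tested. Placing tested genes with 0 wild-type counts at their bound gave 0.31, 0.49, 1.02 and 5.04. Such genes, 4 of the 7 tested at HoxD, passed the count filter through the knockout alone. The medians that include them therefore had to be high and are a description only.

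Outside HoxD, several posterior genes also stood at or near 0 in the wild type. Hoxa10 had 37.6 and 68.5 against 0.380 and 1.67 CPM, 49.4-fold (edgeR log2 5.63, adjusted p = 0.0798). Without wild-type replicate 2 its log2 change was 7.03 (edgeR adjusted p = 0.0396), and without wild-type replicate 1 it was 4.98 (adjusted p = 0.0588). Hoxb13 had 8.88 and 19.8 CPM and Hoxc10 11.3 and 18.4 CPM against 0 counts, at least 29.3 and 29.5-fold higher (adjusted p = 0.147 for each in edgeR). Hoxa11 had 3.63 and 16.4 CPM against 0 counts, at least 21.7-fold higher (edgeR adjusted p = 0.152). Hoxa13, Hoxc11 and Hoxc12 also had 0 wild-type counts but stayed near 0 in the knockout, with 0 and 2, 2 and 1, and 0 and 5 counts. Hoxa9 had 36.1 and 61.3 against 11.0 and 17.0 CPM. Hoxc13, known for its role in hair formation, was an exception, being among the most abundant Hox genes of the wild type, at 77.9 and 75.8 against 59.2 and 68.7 CPM, as was Hoxc8 at 85.4 and 82.7 against 57.0 and 58.1 CPM. Hoxb7 at 40.4 and 81.9 against 82.4 and 76.1 CPM and Hoxa7 at 59.2 and 67.4 against 79.7 and 57.7 CPM overlapped between the groups. So did Hoxb3 at 85.6 and 47.7 against 32.7 and 52.4 CPM, Hoxa5 at 25.2 and 10.1 against 10.3 and 37.4 CPM, and Hoxc5 at 15.3 and 33.4 against 25.4 and 8.68 CPM. Hoxb6, at 63.8 and 56.1 against 38.4 and 50.4 CPM, did not overlap but had an edgeR adjusted p of 0.642.

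**Figure D5:**
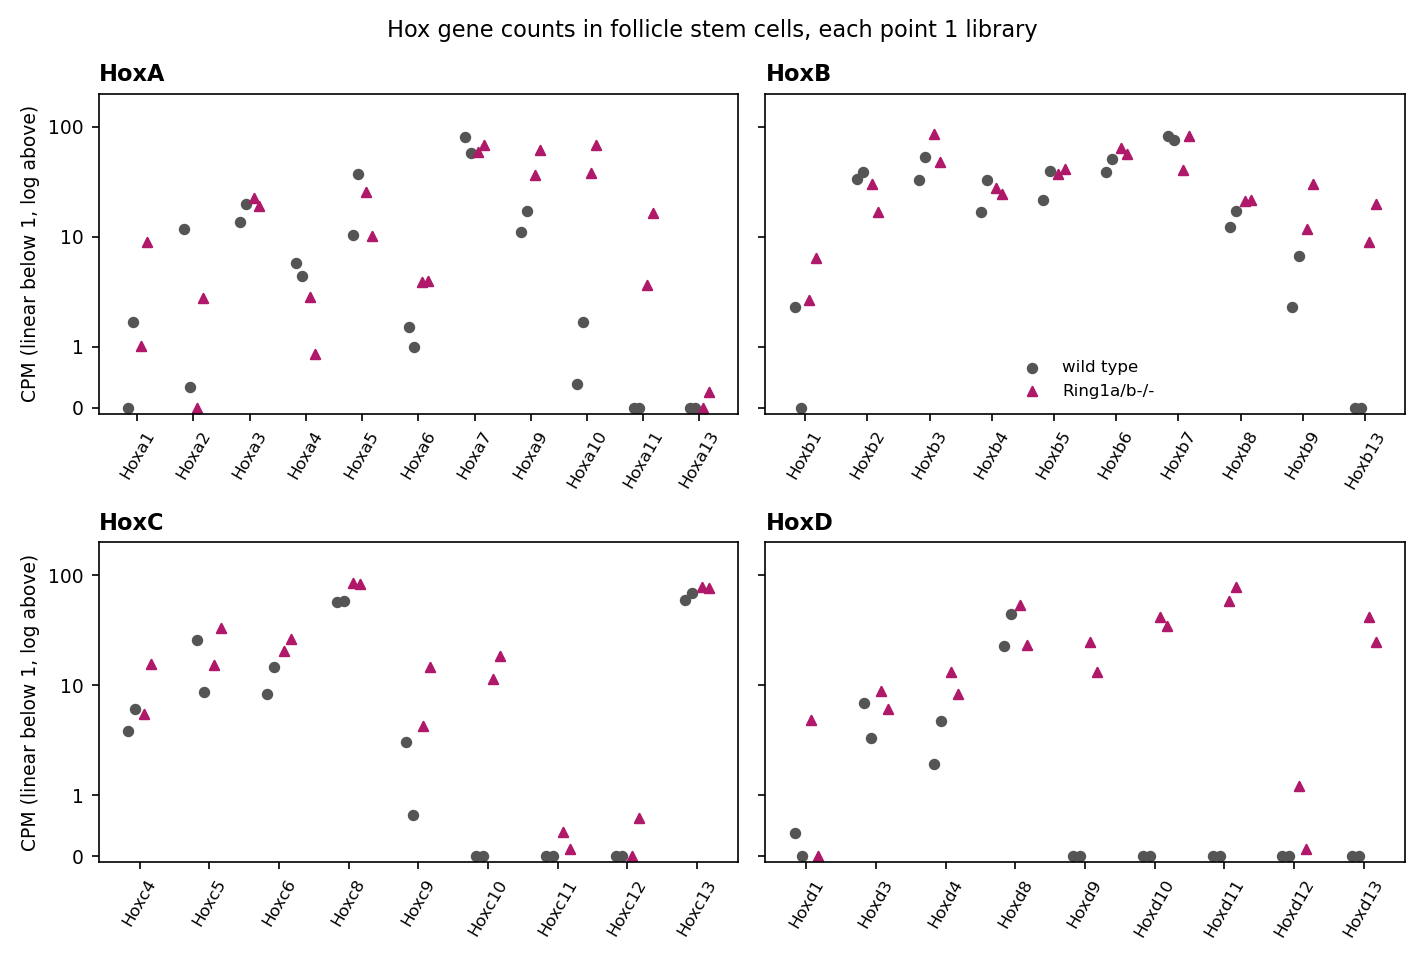
CPM of each Hox gene in HFSC, ordered by number within its cluster, with 1 point per library (circles wild type, triangles Ring1a/b-/-) on an axis that is linear below 1 and logarithmic above. The wild-type points of Hoxd9, Hoxd10, Hoxd11 and Hoxd13 lie at 0 while the knockout points lie between 13.1 and 77.6 CPM, and Hoxc13 and Hoxc8 stay high in all 4 libraries.

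Markers of other cells differed between the genotypes too. The 7 leukocyte markers summed to 109 and 97.1 CPM in wild-type and 589 and 304 CPM in knockout libraries, with 1 of the 6 tested higher, and the 6 fibroblast and dermal papilla markers to 639 and 772 against 321 and 196 CPM, with 0 of 5 tested called. Dcn carried most of the fibroblast sum, at 594 and 430 CPM in wild-type and 272 and 159 CPM in knockout libraries. Col1a1, Col1a2 and Col3a1 were high in wild-type replicate 2 alone (113, 139 and 81.4 CPM, against 14.4, 11.4 and 14.4 CPM in wild-type replicate 1), and Pdgfra stood at 0.380 and 6.34 CPM in wild-type and 6.66 and 12.2 CPM in knockout libraries. The endothelial markers also summed to 33.7 CPM in wild-type replicate 2, against at most 1.14 CPM in the other libraries. The lower bound of Hoxd11 was 61.6-fold without that library and 70.1-fold without wild-type replicate 1. The part of these markers in the Hox differences was not tested, and fewer cells of a type and less RNA per cell cannot be told apart in bulk samples.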

How the data were processed

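Per the labels, Ring1b ChIP-seq covered 1 HFSC and 1 ISC library, and SMART-seq2 RNA-seq 2 knockout and 2 wild-type libraries. The submitters' processing notes name TopHat2 2.1.1, Bowtie 1.2.2, HTSeq 0.7.2, MACS2 2.1.1 and build mm9; the sources used here do not give the settings or the peak-calling control. The deposited peak lists hold, per peak, a score (10 times its −log10 p, checked on every row), a fold ratio over background, and −log10 p and q as the authors called them. Peaks of all lists had −log10 q of at least 2.08 and width of at least 200 bp. The deposited count table holds unnormalized counts of 23377 genes.

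Peaks were assigned by midpoint, covered bases counted once, and overlap set at 1 bp (Python 3.11.15). Positions are 1-based. Counts were tested with edgeR 4.0.16 (filterByExpr, TMM, robust quasi-likelihood, Benjamini-Hochberg over 13134 genes, genotype only). Both scripts were tested on simulated data. Alternatives are in the closing section. The windows, gene lists and naming rule (per cluster and list the widest and highest peak, peaks beside the widest gap, largest summit distances and one-list peaks where at most 10; Hox genes past the threshold, the most abundant, and those of largest change) were chosen with earlier results of these data known.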

Additional observations from a re-analysis of the deposited data

How the results depend on the processing

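Raising the minimum −log10 q to 10 left 67 HFSC and 24 ISC Hox peaks over 56.2 and 33.4 kb, 28.4 and 75% of them overlapped by the other list, with differences (HFSC minus ISC) of -4.39 kb at HoxA and 5.91 kb at HoxB. Joining peaks up to 1 kb apart gave 77 and 65 peaks, 59.7 and 69.2% overlapped, and 6.84 kb at HoxB. Shortening the HFSC list to the 4444 strongest peaks gave 0.763 kb at HoxB. Asking for a reciprocal overlap of 50% left 21.97 and 24.2% overlapped. The differences at HoxC and HoxD moved less, and no cluster's difference in covered bases changed sign under these alternatives or with windows widened by 50 kb. The order of the cell types turned elsewhere: in HoxA peak number (19 and 17 at −log10 q of 10, 23 and 18 joined), in all Hox peaks, bases and overlap shares with the shortened list (141 and 157 peaks, 83.1 and 85.5 kb, 51.8 and 50.3%), in median width at HoxC and HoxD at −log10 q of 10 and at HoxB joined, and in median fold at HoxB at −log10 q of 10 (8.51 and 9.41, the latter 1 peak). In the RNA, genes called higher and lower numbered 901 and 891 with DESeq2 and 455 and 347 with no count filter, and Hox genes called higher 9 and 8. The labels do not pair same-numbered libraries, so the numbers were not taken as pairs. The deviations of same-numbered libraries correlated weakly (Pearson -0.140). With the replicate number as a block, 213 genes were higher, 203 lower and 7 Hox genes higher. With the numbers crossed, an alternative added after seeing the data, the replicate block gave 8 higher, 0 lower and 1 Hox gene higher. Leaving out 1 library gave 0 to 43 genes higher, 0 to 17 lower and 0 to 3 Hox genes higher; the cause of these moves was not tested. The log2 changes of Hoxa5 (-1.24 to 0.75, 0.07 without knockout replicate 2), Hoxa7 (-0.35 to 0.14), Hoxb7 (-0.99 to 0.047), Hoxc5 (-0.17 to 1.5, -0.07 without wild-type replicate 2) and Hoxd8 (-0.54 to 0.72, -0.22 without wild-type replicate 1), none of them called, changed sign when 1 library was left out. The depth of the ChIP libraries is unknown, and a region with no peak is not shown to lack Ring1b.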
